A study of Mus musculus with 2 samples.

Results

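The 10 genes described here make up the antigen receptor of B cells and part of the surface by which mature B cells are known. They were chosen by symbol, and all 10 were found among the 27809 genes of the matrix. They are *Ighm*, *Ighd*, *Igkc*, *Iglc2*, *Cd79a*, *Cd79b*, *Ms4a1*, *Fcer2a*, *Cr2* and *Fcmr*. They were followed in CD45+ cells of mouse hearts, by hashtag group, in the cells with little *Lyz2* (under 2000 reads per 1000000 reads, CPM), which hold the lymphocytes, and in myeloid cells (*Csf1r* of at least 200 CPM and *Lyz2* of at least 2000 CPM), where reads of B cells might be carried over.

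Hearts came from male mice aged 8 weeks on a C57BL/6 background, and were taken 1 week after surgery. WT mice had a sham operation or transverse aortic constriction (TAC), which loads the left ventricle with pressure, and CD3ϵ-/- mice, which lack the CD3ϵ chain of the T cell receptor in all their cells and so form no conventional T cells, had the same 2 operations. A further group of WT mice had TAC and was given an antibody to CD8 on day 0 and every 3 days. Cells were given a hashtag for each group, pooled and made into 1 library by TAS-Seq, a BD Rhapsody-based method, so each of the 5 hashtag groups was 1 sample, how many animals it held is not given in the sources used here, and no test between groups was possible. Where 5 values are given in a row, WT sham is first and CD3ϵ-/- sham second, then come WT TAC and CD3ϵ-/- TAC, and the group labelled CD8+T cell-depleted TAC is last.

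On the B cell surface the receptor is built of 2 kinds of chain. *Ighm* and *Ighd* encode the constant parts of the heavy chains of IgM and IgD, which a naive B cell makes from the same transcript by splicing, and *Igkc* and *Iglc2* encode constant parts of the κ and λ light chains, of which a B cell normally uses 1 kind. *Cd79a* and *Cd79b* encode the pair of signalling chains (Igα and Igβ) that carry the receptor to the surface. *Ms4a1* encodes CD20, *Fcer2a* the low-affinity IgE receptor CD23, *Cr2* the complement receptor CD21 and *Fcmr* the receptor for the Fc part of IgM. CD23 is known from follicular B cells and CD21 is highest on marginal zone B cells. The heart holds B cells of the blood and of its tissue also at rest. *Ighm* (chr12:113418826-113422730, GRCm38.p6 as all positions here) and *Ighd* (chr12:113407535-113416324) lie side by side, while *Cd79a* (chr7:24897497-24901858) and *Cd79b* (chr11:106311341-106314562) lie apart, and *Cr2* (chr1:195136811-195176880) and *Fcmr* (chr1:130865777-130880790) share a chromosome. *Igkc* lies at chr6:70726435-70726754, *Ms4a1* at chr19:11249679-11266149 and *Fcer2a* at chr8:3680280-3694174.

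The matrix kept 1000, 835, 1615, 919 and 894 cells per group after cells with fewer than 500 genes or over 40% mitochondrial reads had been left out. Median reads per cell were 75442, 78372, 98869, 117788 and 98471, and these are reads, not molecules. Intervals are exact Poisson intervals for reads and exact Clopper-Pearson intervals for shares, both of 95%. They cover counting error alone and are too narrow, since reads of 1 molecule are not independent. No cell barcode was found under more than 1 hashtag. *Cd3e*, the targeted gene, had 40.6, 1.04, 28.6, 3.06 and 40.2 CPM in the cells with low *Lyz2*, so it was low in both CD3ϵ-/- groups. *Cd8a* had 23.3 CPM in WT TAC and 22.7 CPM in the group labelled CD8+T cell-depleted TAC, and *Cd8b1* 33.0 and 27.0 CPM, so these genes did not show the loss of CD8+T cells that the label of this group states, and it is called by its label.

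B cell-like cells were marked by genes other than the 10. A cell with low *Lyz2* was counted as B cell-like when at least 4 of 10 further B cell genes, among them *Pax5*, *Cd22*, *Ebf1*, *Blk*, *Fcrla*, *Bank1*, *Ly6d*, *Pou2af1* and *Vpreb3*, had 20 CPM or more. Of 1700 cells with low *Lyz2*, 465 were B cell-like and 1198 had 0 or 1 of these markers, while only 37 had 2 or 3, so the limit parted the cells with few near it. No *Lyz2* read was found in 442 of the 465 cells, and 13 had between 1000 and 2000 CPM of it. The 10 genes followed this division closely. At least 8 of the 10 were read in 395 of the 465 B cell-like cells (84.9%), whereas in the 1235 other cells with low *Lyz2* at least 3 of the 10 were read in 18 cells (1.46%).

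The share of B cell-like cells differed between groups. They were 10.3% (8.49% to 12.4%) of the kept cells in WT sham, 14.7% (12.4% to 17.3%) in CD3ϵ-/- sham, 5.82% (4.73% to 7.08%) in WT TAC, 8.05% (6.375% to 10.004%) in CD3ϵ-/- TAC and 7.94% (6.25% to 9.91%) in the group labelled CD8+T cell-depleted TAC. The shares of both TAC groups were thus below those of the sham groups of their genotype, and the shares in CD3ϵ-/- hearts were above those of WT hearts with the same operation, although the intervals of WT TAC and CD3ϵ-/- TAC overlapped and those of the 2 sham groups lay next to each other at 12.4%. Among the cells with low *Lyz2* the B cell-like cells made up 25.2%, 39.0%, 19.6%, 31.6% and 26.9%. The denominator moved as well, since cells with at least 3 T cell markers were 60, 19, 42, 6 and 34 in number. Without them the shares were 29.6%, 41.6%, 21.5%, 32.5% and 30.9%. Myeloid cells, which share the total, were 56.5%, 58.1%, 67.8%, 73.1% and 67.9% of the kept cells.

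**Figure D1:**
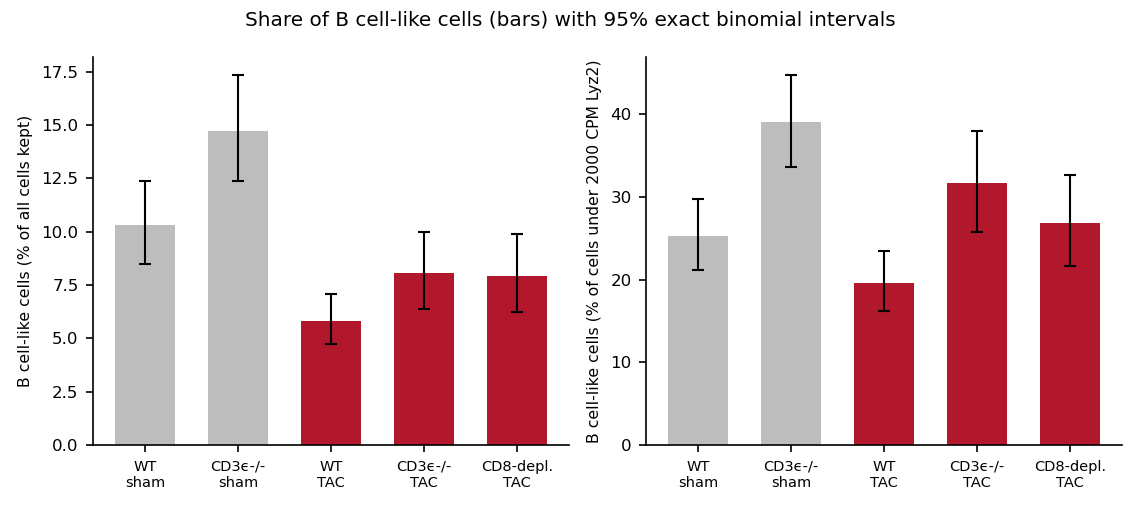
Bars give B cell-like cells in percent of all kept cells (left) and in percent of the cells with *Lyz2* under 2000 CPM (right) for the 5 hashtag groups, and lines give 95% exact binomial intervals for counting error. In both panels CD3ϵ-/- sham is highest (14.7% and 39.0%) and WT TAC lowest (5.82% and 19.6%).

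Within B cell-like cells the heavy chain genes stayed within 1.5-fold between groups. *Ighm* had 3976, 3904, 4978, 5157 and 4936 CPM, so the 3 TAC groups lay above both sham groups. Between WT TAC and the group labelled CD8+T cell-depleted TAC, and between the 2 sham groups, the intervals of *Ighm* overlapped. It was read in 99.4% of the 465 cells. *Ighd* had 1723, 2060, 2236, 2138 and 1980 CPM and was read in 94.2% of the cells. Its level was lowest in WT sham and highest in WT TAC, a span of 1.20-fold once 2 cells of very high *Igkc*, described further on, were left out. Without these 2 cells, *Ighm* had 4358, 3904, 4471, 5157 and 4936 CPM, so WT sham and WT TAC then lay close together.

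*Igkc* had 27099, 8119, 10742, 11919 and 9117 CPM. WT sham stood apart, and a single cell held 70.5% of its *Igkc* reads. Without this cell and 1 cell of WT TAC, the levels of *Igkc* were 8771, 8119, 9610, 11919 and 9117 CPM, and CD3ϵ-/- TAC was then the highest. *Iglc2* had 801, 873, 1137, 1055 and 1132 CPM, higher in the 3 TAC groups than in both sham groups.

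The signalling chains were read in nearly every B cell-like cell, *Cd79a* in 98.7% and *Cd79b* in 93.3%. *Cd79a* had 3209, 2997, 3359, 3783 and 3147 CPM, a span of 1.26-fold without the 2 cells of very high *Igkc*. *Cd79b* had 1106, 1062, 1567, 1458 and 1506 CPM. The 3 TAC levels of *Cd79b* had overlapping intervals from one to the next, as had the 2 sham levels, and the TAC levels were all above the sham levels.

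The surface proteins showed no common order of groups. *Ms4a1* had 1615, 1390, 1380, 1910 and 1672 CPM, with CD3ϵ-/- TAC highest. *Fcer2a* had 780, 628, 869, 886 and 621 CPM, so the group labelled CD8+T cell-depleted TAC was level with CD3ϵ-/- sham and below the other TAC groups. *Fcmr* had 828, 916, 1000, 1054 and 1068 CPM, higher in the 3 TAC groups than in both sham groups, and was the most even of the 10 genes, with a span of 1.18-fold without the 2 cells of very high *Igkc*. *Cr2* had 185, 206, 159, 248 and 189 CPM, highest in CD3ϵ-/- TAC and lowest in WT TAC. It was read in 46.2% of B cell-like cells, against 81.7% for *Fcer2a* and 81.9% for *Fcmr*. Thinned to 30702 reads per cell, which left out 75 of the 465 cells, *Cr2* was read in 37.6%, 47.6%, 42.0%, 56.7% and 49.2% of B cell-like cells, with wide intervals (43.2% to 69.4% in CD3ϵ-/- TAC and 31.1% to 53.5% in WT TAC) that overlapped.

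**Figure D2:**
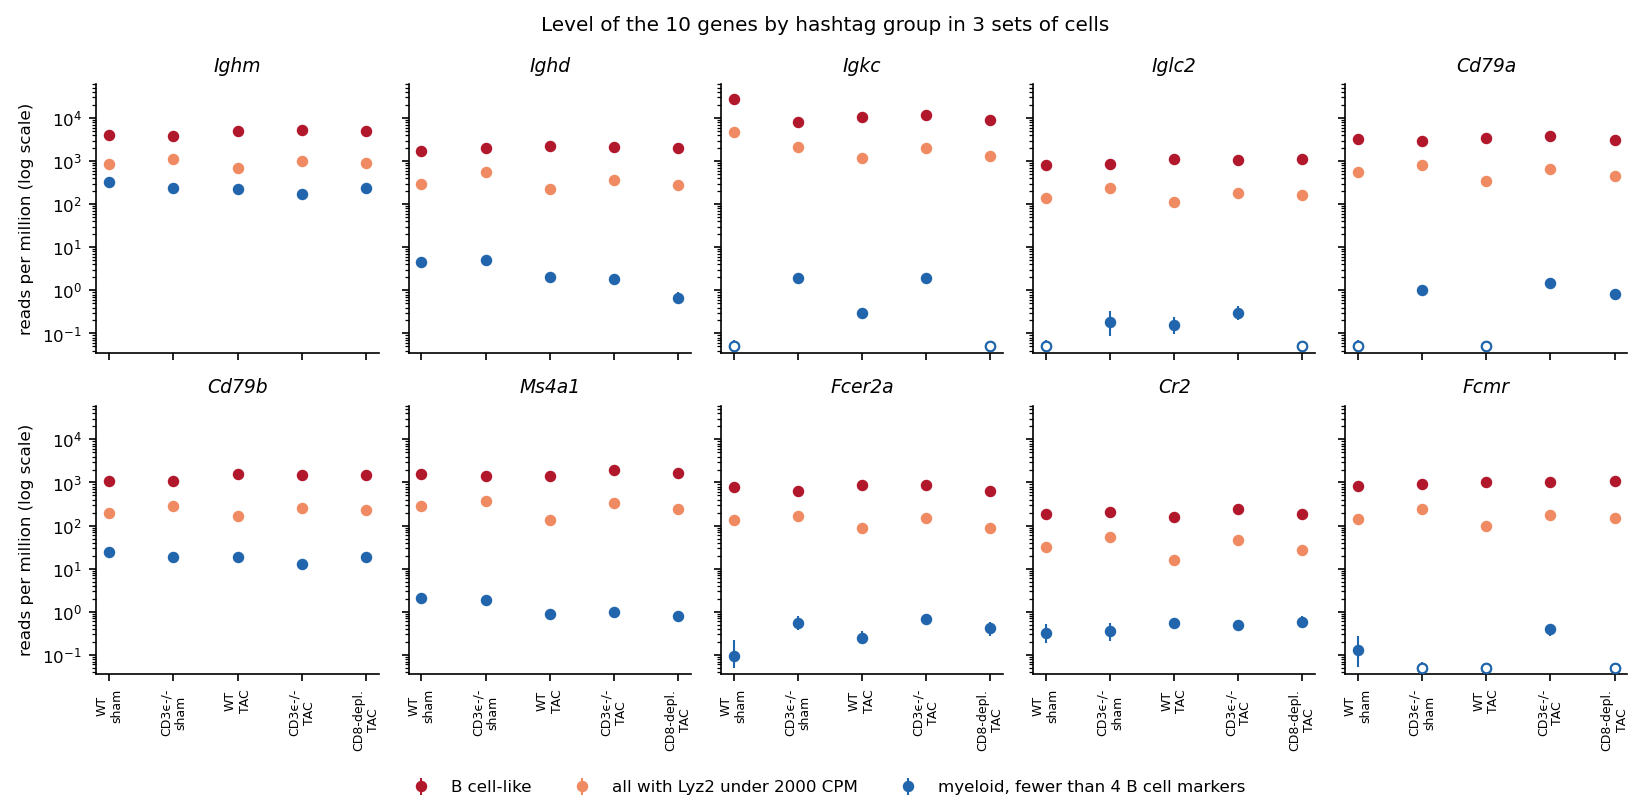
Each panel gives 1 gene, with the 5 hashtag groups on the horizontal axis and CPM on a log axis, in B cell-like cells (dark red), in all cells with *Lyz2* under 2000 CPM (orange) and in myeloid cells with fewer than 4 B cell markers (blue). Lines are 95% exact Poisson intervals, mostly smaller than the points, and open circles at the base mark groups without a read. *Igkc* in B cell-like cells stands out in WT sham (27099 CPM), and *Ighm* is the gene whose myeloid level comes nearest to the other sets.

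Between groups, a gene was counted as past the fold when its level, with 10 CPM added, differed by 1.5-fold or more and it had 20 CPM in either group. All 10 genes passed this filter in both sets of cells. In B cell-like cells, few of them were past the fold, although many other genes were, and each group held 71 to 123 such cells. The share of all genes beside each count is not matched for level. It takes in genes with as little as 20 CPM in the higher group, while the 10 genes had at least 159 CPM. From WT sham to WT TAC, 1 of the 10 (*Igkc*, with a log2 ratio of -1.33) was past the fold, against 27.9% of all genes tested. The median log2 ratio of the 10 was 0.21. Without the cells of high *Igkc* none was past the fold, and the ratio of *Igkc* turned to 0.13. From CD3ϵ-/- sham to CD3ϵ-/- TAC, 0 of the 10 were past it, against 31.1% of all genes. All 10 log2 ratios were above 0 there, from 0.05 for *Ighd* to 0.55 for *Igkc*, with a median of 0.37 where the median of all genes was 0.03. From WT sham to CD3ϵ-/- sham, *Igkc* alone was past the fold (a log2 ratio of -1.74), against 24.1% of all genes, and none was once the cells of high *Igkc* were left out. Between WT TAC and CD3ϵ-/- TAC, *Cr2* was past it, higher in the latter, with a log2 ratio of 0.61, against 30.1% of all genes. This call was lost when the cells of high *Igkc* were left out and when 6 markers were asked for. In the group labelled CD8+T cell-depleted TAC against WT TAC, 0 of the 10 were past the fold, against 30% of all genes, and the largest change was -0.48 for *Fcer2a*.

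In all cells with low *Lyz2*, the levels of the 10 genes were highest and lowest where the share of B cell-like cells was. In bulk sums of this kind, fewer B cells and less RNA per B cell cannot be told apart, so the share of reads from B cell-like cells is given beside each comparison. That share was 17.4%, 26.2%, 9.95%, 16.8% and 14.1%. For 9 of the 10 genes CD3ϵ-/- sham had the highest level, and for all 10 WT TAC had the lowest. *Igkc*, the exception, had 4708, 2164, 1177, 2010 and 1303 CPM, and 1414, 2164, 953, 2010 and 1303 CPM without 3 cells of very high *Igkc*, so that CD3ϵ-/- sham was then highest here too.

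*Cd79a*, for instance, had 560, 795, 340, 645 and 454 CPM. *Ms4a1* had 281, 367, 138, 329 and 237 CPM, and *Cr2* had 32.5, 55.1, 16.1, 46.8 and 27.3 CPM. In each of these genes both CD3ϵ-/- groups were above WT sham, and WT TAC was below every other group. *Ighd* had 301, 548, 227, 363 and 282 CPM, with CD3ϵ-/- sham well above the rest. *Fcmr* had 144, 241, 100.2, 179 and 151 CPM, and the intervals of WT sham and the group labelled CD8+T cell-depleted TAC overlapped. *Fcer2a* had 136, 168, 86.9, 152 and 88.0 CPM, where the last group was level with WT TAC. *Iglc2* (139, 232, 113, 179 and 161 CPM) and *Cd79b* (198, 288, 163, 255 and 224 CPM) kept the same order of groups as *Fcmr*. *Ighm* had 837, 1148, 693, 1021 and 893 CPM, the narrowest span of the 10, and between 71.5% (WT TAC) and 89.2% (CD3ϵ-/- sham) of its reads in this set were in B cell-like cells.

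From WT TAC to CD3ϵ-/- TAC, 9 of the 10 genes were past the fold, all upward, against 5.63% of all genes tested. Their log2 ratios ran from 0.55 for *Ighm*, the gene not past the fold, to 1.19 for *Ms4a1*, with a median of 0.76, and the log2 ratio of the share of reads from B cell-like cells was 0.76 too. The count fell to 3 when the limit on *Lyz2* was set at 500 CPM. From WT sham to WT TAC, 5 were past the fold, all downward (*Igkc*, *Cd79a*, *Ms4a1*, *Fcer2a* and *Cr2*), against 14.4% of all genes. All 10 ratios were below 0, with a median of -0.54, and the share of B cell-like reads changed by -0.80. With the mean of single cells in place of summed reads, 1 was past the fold. From CD3ϵ-/- sham to CD3ϵ-/- TAC, 0 were past the fold, against 14.9% of all genes, while all 10 ratios were below 0, with a median of -0.18 and a change in the share of reads of -0.64. With a *Lyz2* limit of 500 CPM, 2 were past the fold and the median was -0.38, and 1 was past it with a limit of 1000 CPM or with 1 CPM added. From WT sham to CD3ϵ-/- sham, *Ighd*, *Iglc2*, *Cr2* and *Fcmr* were past the fold upward and *Igkc* downward, against 5.32% of all genes. The median was 0.51 and the change in the share of reads 0.60. The direction of *Igkc* rested on 1 WT sham cell, as its log2 ratio of -1.12 became 0.61, past the fold upward, once the cells of high *Igkc* were left out (1414 and 2164 CPM). From WT TAC to the group labelled CD8+T cell-depleted TAC, *Ms4a1* alone was past the fold (a log2 ratio of 0.74), against 3.85% of all genes, with a median of 0.42 and a change in the share of reads of 0.51. These comparisons share control groups and are not independent of each other.

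**Figure D3:**
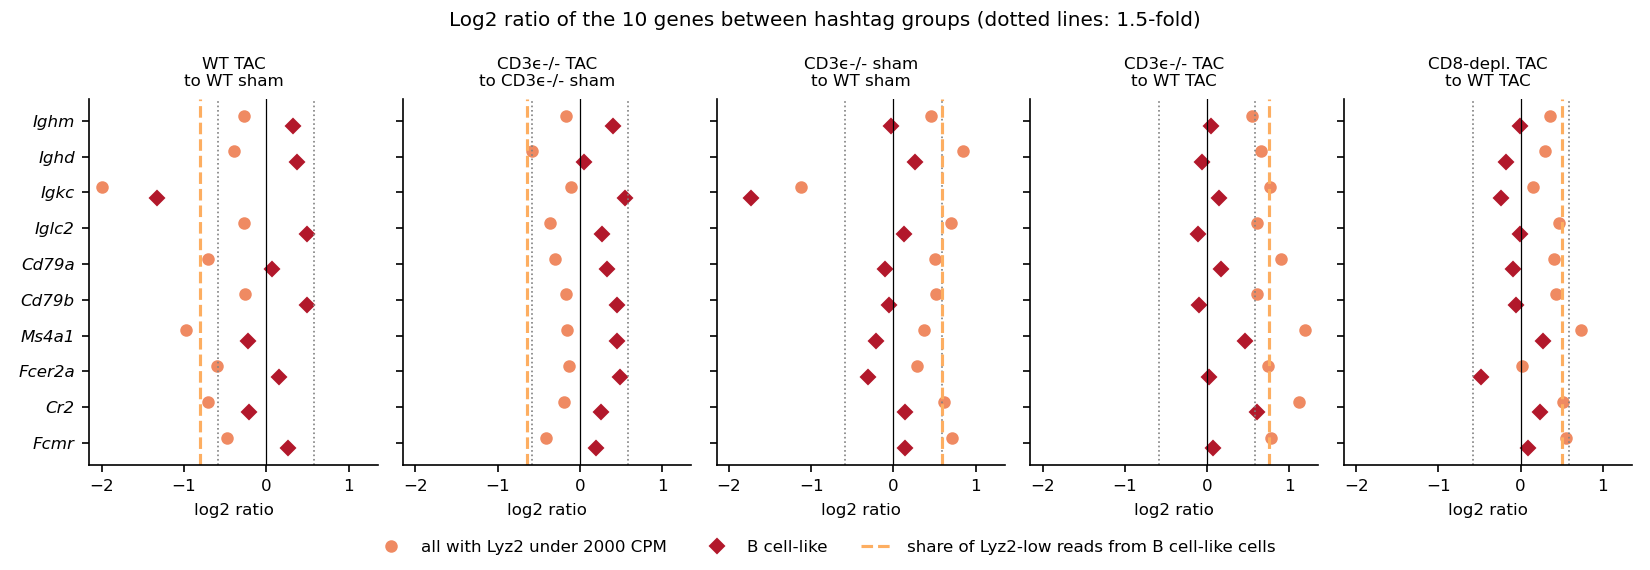
Each panel gives 1 comparison, with the log2 ratio of the 10 genes on the horizontal axis in all cells with *Lyz2* under 2000 CPM (orange circles) and in B cell-like cells (red diamonds). The dashed line is the log2 ratio of the share of low-*Lyz2* reads that came from B cell-like cells and the dotted lines mark 1.5-fold. From WT TAC to CD3ϵ-/- TAC the circles gather about the dashed line at 0.76, while most diamonds lie near 0.

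The cells of very high *Igkc* were few, and were singled out after their values had been seen. In WT sham, 1 B cell-like cell with 590701 reads had 214173 CPM of *Igkc* and 115300 CPM of *Igha*, the constant part of the IgA heavy chain, with 72.8 CPM of *Ighm* and no read of *Ighd*, *Ms4a1*, *Fcer2a*, *Cr2* or *Fcmr*. It also had *Xbp1* (681 CPM), *Prdm1* (444 CPM) and *Derl3* (697 CPM), genes known from antibody-secreting cells. With 1803 CPM of *Lyz2* it lay just under the limit, and with 361 CPM of *Csf1r* above the limit of 200 CPM used for myeloid cells. In WT TAC, 1 cell that was not B cell-like had 43159 CPM of *Igkc* and 42055 CPM of *Igha* with *Sdc1*, *Mzb1* and *Prdm1*. It also had 661 CPM of *Klrb1c*, an NK cell marker. Whether this cell and the WT sham cell were wells with 2 cells was not tested. Another WT TAC cell, which was B cell-like, had 71103 CPM of *Igkc* with 32047 CPM of *Ighm* and no read of *Prdm1*, *Xbp1* or *Sdc1*. All 3 cells lacked reads of *Ighd*, *Ms4a1*, *Fcer2a*, *Cr2* and *Fcmr*, and the other 3 groups held no such cell. Over all 5 groups, the 465 B cell-like cells had 13638 CPM of *Igkc*, and 9312 CPM without 2 of these cells.

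The light chains were used unequally. Of the 465 B cell-like cells, 442 had more reads of *Igkc* than of *Iglc2*, and in 19 (4.09%, 2.48% to 6.31%) *Iglc2* was ahead, while the few others had a read of neither. In 16 of the 19 cells *Iglc2* made up at least 90% of the reads of both. By group these *Iglc2*-led cells were 5 of 103, 3 of 123, 6 of 94, 1 of 74 and 4 of 71. The intervals of the shares overlapped, from 1.35% (0.0342% to 7.30%) in CD3ϵ-/- TAC to 6.38% (2.38% to 13.4%) in WT TAC. Counting *Iglc1*, *Iglc2* and *Iglc3* together, 33 cells (7.10%) were led by λ chains, namely 9, 6, 11, 1 and 6. In these 33 cells the median of *Igkc* was 0 CPM, with 14 cells holding a read of it, and the median of *Iglc2* was 2359 CPM. The λ-led cells had a median of 6097 CPM of *Ighm*, 1500 CPM of *Ighd* and 254 CPM of *Fcer2a*, against 4509, 2234 and 663 CPM in the 431 cells led by *Igkc*, so *Ighd* and *Fcer2a* had the lower and *Ighm* the higher median in the λ-led cells. Their quartiles overlapped for each of the 3 genes.

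Reads of *Iglc2* were nevertheless common in cells that used the κ chain. Among the 442 cells led by *Igkc*, 358 (81.0%) had a read of *Iglc2*, which made up a median of 7.21% of the reads of both chains (quartiles 1.98% and 12.9%). This was alike in the 5 groups, whose medians lay between 6.57% and 7.73%. *Iglc3* was read in 353 of the 431 cells led by *Igkc* over all λ chains, while *Iglc1* was read in 150 of them. Outside the B cells such reads were rare, with *Iglc2* read in 3 of 3386 myeloid cells with fewer than 4 B cell markers.

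**Figure D4:**
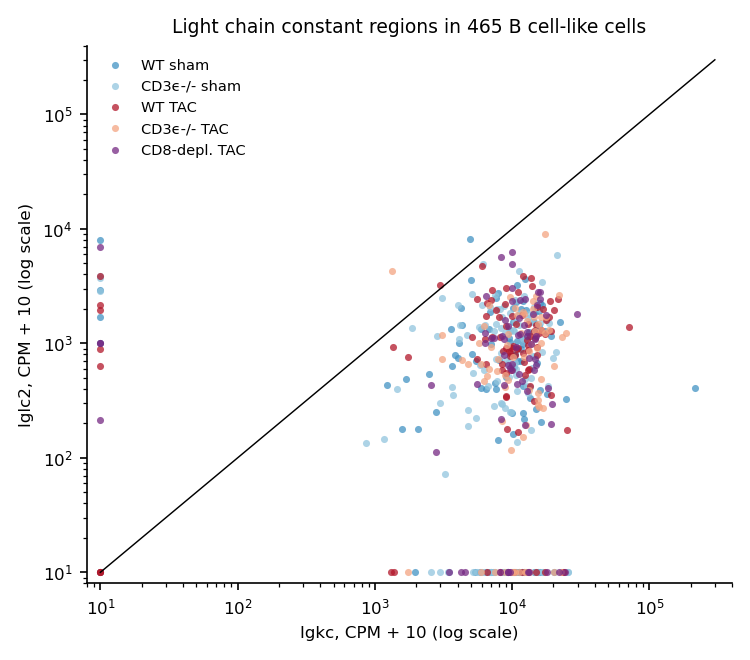
Each point is 1 of the 465 B cell-like cells, with *Igkc* on the horizontal and *Iglc2* on the vertical axis, in CPM with 10 added and on log axes. Colours give the hashtag group, and the line marks equal levels. Most cells lie below the line about the median of the *Igkc*-led cells (10480 CPM), 19 lie above it, and 1 WT sham cell lies far to the right at 214173 CPM.

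The 2 λ genes that were read together are close copies, which is why their sequences are shown. *Iglc2* lies at chr16:19198536-19198852 and *Iglc3* at chr16:19065365-19065681 (GRCm38.p6), whereas *Igkc* lies on chromosome 6. In the mouse annotation GENCODE M1 their coding parts of 315 bases differed at 11 positions (96.5% identical). Bases 1 to 150 of the coding part, with the 7 positions that differ in capitals, read as follows.
Iglc2: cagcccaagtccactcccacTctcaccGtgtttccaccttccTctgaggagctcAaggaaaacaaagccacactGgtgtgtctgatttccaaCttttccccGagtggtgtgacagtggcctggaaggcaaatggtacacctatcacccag
Iglc3: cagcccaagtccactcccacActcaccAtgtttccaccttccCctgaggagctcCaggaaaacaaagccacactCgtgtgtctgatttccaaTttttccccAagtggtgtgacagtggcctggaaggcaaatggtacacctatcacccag
The last 60 bases of the coding part were the same in both, and the longest stretch that the parts after it shared was 38 bases. Reads within such stretches cannot be told apart, so the split of reads between *Iglc2* and *Iglc3* is uncertain.

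In myeloid cells, the question was whether B cell reads were spread over other cells. Over 3424 myeloid cells, 8 of the 10 genes had 0.402% to 0.664% of their level in B cell-like cells, *Cd79b* had 1.91% and *Ighm* 5.72%. Most of this, for the 8 genes, came from few cells. Among the myeloid cells, 38 had at least 4 of the 10 B cell markers (1, 10, 8, 15 and 4 by group), and all 38 had reads of at least 6 of the 10 genes. They held between 60.8% (*Cr2*) and 98.5% (*Igkc*) of the myeloid reads of the 8 genes. These 38 cells had a median of 168758 reads, against 99236 in the other myeloid cells, and they were 2.06% of myeloid cells in CD3ϵ-/- sham and 2.23% in CD3ϵ-/- TAC, against 0.177% in WT sham. Whether they are wells with 2 cells was not tested.

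In the 3386 myeloid cells with fewer than 4 B cell markers, the 8 genes had 0.00597% (*Igkc*) to 0.247% (*Cr2*) of their level in B cell-like cells. *Igkc* was read in 5 of these cells and *Cd79a* in 7. In WT sham 0 of 564 cells and in the group labelled CD8+T cell-depleted TAC 0 of 603 cells had a read of *Igkc*, which allows a share of up to 0.532% and 0.498%. *Fcmr* was read in 2 cells, *Iglc2* in 3, *Fcer2a* in 16, *Ms4a1* in 32, *Ighd* in 41 and *Cr2* in 108. In the 108 cells *Cr2* had a median of 1 read, and thinned to 30702 reads it was read in 1.08% of the cells.

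*Ighm* went against this pattern. It was read in 1877 of the 3386 cells (55.4%) at 232 CPM, which is 5.16% of its level in B cell-like cells, and in 1511 of the 1659 cells with a read of a single one of the 10 genes that gene was *Ighm*. There were 284 reads of *Ighm* for each read of *Igkc* in these cells, so the 2 genes did not keep the ratio that they had in B cells. The ratio was 0.329 in B cell-like cells, 0.480 there without the cells of high *Igkc*, and 0.542 in the 38 myeloid cells with B cell markers. By group, *Ighm* had 334, 242, 227, 174 and 242 CPM in the myeloid cells with fewer than 4 B cell markers. Both genotypes were lower after TAC than after sham, with log2 ratios of -0.54 in WT and -0.46 in CD3ϵ-/-. Thinned to 30702 reads per cell, *Ighm* was read in 63.4% (59.1% to 67.5%), 61.1%, 54.1%, 47.6% (43.7% to 51.6%) and 56.8% of these cells. CD3ϵ-/- TAC, with the lowest share, was the group with the most reads per cell.

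*Cd79b* came next. It had 18.0 CPM in the 3386 cells, 1.38% of its level in B cell-like cells, and was read in 340 of them (10.04%), of which 82 had no read of another of the 10 genes. By group it had 23.8, 18.6, 19.1, 12.9 and 18.4 CPM. *Cd79a*, the partner of *Cd79b* in the receptor, had 0.635 CPM in the same cells.

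**Figure D5:**
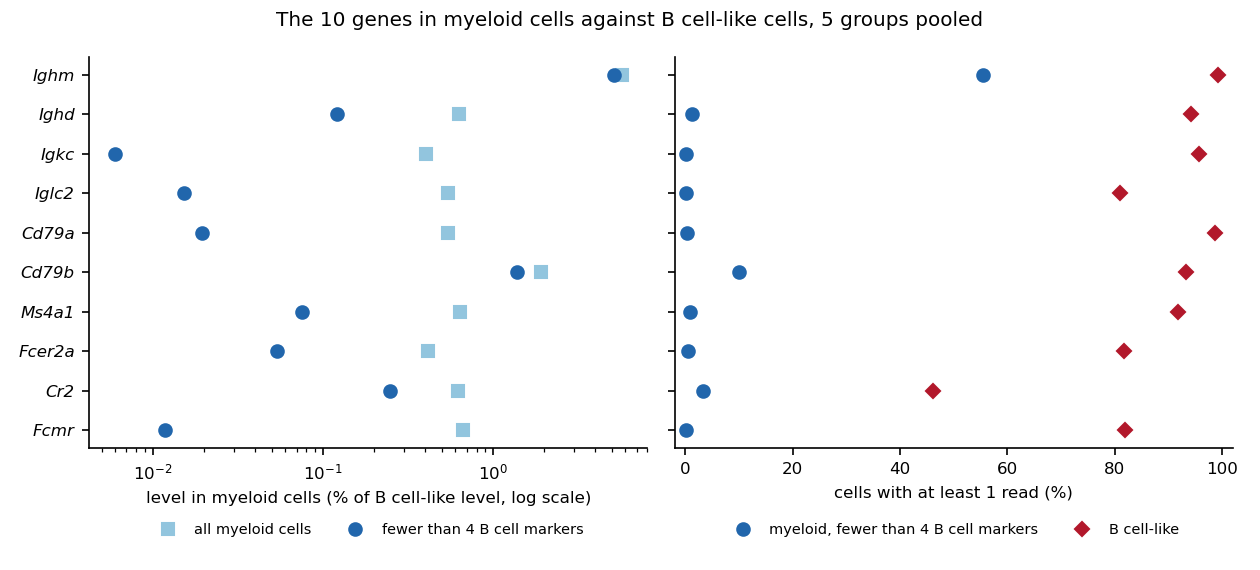
On the left, the level of each gene in myeloid cells is given in percent of its level in B cell-like cells on a log axis, for all 3424 myeloid cells (squares) and for the 3386 with fewer than 4 B cell markers (circles). On the right, the percent of cells with a read is given for the latter (circles) and for the 465 B cell-like cells (diamonds). Without the 38 cells, 8 genes fall to 0.247% or less, while *Ighm* stays at 5.16% and *Cd79b* at 1.38%.

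*Ighm* was not limited to myeloid cells. In the 1235 other cells with low *Lyz2* it had 201 CPM and was read in 49.1% of the cells. Among cells picked by at least 3 markers of a type, *Ighm* was read in 73 of 161 with T cell markers (162 CPM), in 40 of 65 with NK cell markers (241 CPM), in 22 of 81 with markers of group 2 innate lymphoid cells (155 CPM), in 165 of 213 with markers of conventional dendritic cells (207 CPM) and in 30 of 40 with markers of plasmacytoid dendritic cells (357 CPM). In 42 cells with neutrophil markers it was read in 12 (156 CPM). In 35 cells with fibroblast markers it was read in 2, at 11.4 CPM, although these cells had a median of 177206 reads. The cells with fibroblast markers thus had the lowest level of *Ighm* of the sets named here. *Igkc*, *Iglc2*, *Cd79a*, *Cd79b*, *Ms4a1* and *Fcmr* had no read in them, nor in the cells with neutrophil markers. Of the cells with fibroblast markers, *Ighd* was read in 1 (5.82 CPM), *Fcer2a* in 1 and *Cr2* in 2. In sum, the 53 *Ighv* genes, which encode the variable parts of heavy chains, had 209 CPM in B cell-like cells and 0.347 CPM in myeloid cells with fewer than 4 B cell markers, where 1.57% of the cells had a read of one of them. Reads of *Ighv* genes were thus far fewer for each *Ighm* read in myeloid cells than in B cell-like cells. From which part of *Ighm* these reads came cannot be read from counts per gene.

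Of the genes of the matrix that are not among the 10 and have 20 CPM in cells with low *Lyz2*, those most like the 10 over the 1700 cells included *Cd55*, *Ly6d*, *Bank1* and *Cd22*, with a Pearson correlation of 0.84, 0.84, 0.84 and 0.83 between their log values and the mean log value of the 10. All points share 1 library and differ in depth, and all of these genes but *Cd55* are themselves among the markers that defined B cell-like cells. Within the 465 B cell-like cells the 10 genes were only loosely tied to each other. The highest correlations of log values were 0.30 between *Cd79a* and *Ighm*, 0.28 between *Fcer2a* and *Ighd*, and 0.27 between *Ms4a1* and *Ighm*, and that of *Igkc* with *Iglc2* was -0.02.

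The upstream stretches of 3 of the 10 genes are shown, those with a start in the RefSeq table used (GRCm38.p6) that lies at the edge of the gene, namely *Cd79a*, *Fcmr* and *Fcer2a* (the first of 3 starts). All 3 were read in B cell-like cells and in few myeloid cells without B cell markers. The 250 bases before the start were searched on both strands for ATGCAAAT (the octamer bound by Oct proteins), CCCNNGGG (a core of EBF1 sites), CAGNTG (E-box) and GGAAGT (a core of ETS sites), and matches are in capitals.
Cd79a, chr7:24897247-24897496, plus strand: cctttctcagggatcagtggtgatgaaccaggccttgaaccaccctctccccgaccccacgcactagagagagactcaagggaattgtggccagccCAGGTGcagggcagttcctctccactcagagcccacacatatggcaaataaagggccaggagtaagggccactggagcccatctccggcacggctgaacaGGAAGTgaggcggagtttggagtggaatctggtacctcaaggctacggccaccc
Fcmr, chr1:130865527-130865776, plus strand: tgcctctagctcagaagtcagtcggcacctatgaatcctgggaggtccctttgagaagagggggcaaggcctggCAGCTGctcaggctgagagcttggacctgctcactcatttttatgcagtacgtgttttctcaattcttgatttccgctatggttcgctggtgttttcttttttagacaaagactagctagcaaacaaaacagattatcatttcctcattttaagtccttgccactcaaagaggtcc
Fcer2a, chr8:3694175-3694424, minus strand: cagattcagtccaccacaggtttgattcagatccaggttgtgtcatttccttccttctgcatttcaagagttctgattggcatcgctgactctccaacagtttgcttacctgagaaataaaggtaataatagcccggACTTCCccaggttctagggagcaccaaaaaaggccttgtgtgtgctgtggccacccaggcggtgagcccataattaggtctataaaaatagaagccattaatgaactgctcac
*Cd79a* held 1 E-box and 1 ETS core, *Fcmr* 1 E-box and *Fcer2a* 1 ETS core. Neither the octamer nor the EBF1 core was found in the 3 windows. Over all 32851 windows of the same length, 44.8% held the E-box, 19.7% the ETS core, 11.8% the EBF1 core and 1.60% the octamer, so these matches are a description and not sites.

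Other genes of B cells were followed in the same B cell-like cells, by lists. The share of all genes beside them is again not matched for level. Each count reads against the share of all genes past the fold in the same cells, which was 27.9% from WT sham to WT TAC, 31.1% from CD3ϵ-/- sham to CD3ϵ-/- TAC, 24.1% from WT sham to CD3ϵ-/- sham, 30.1% from WT TAC to CD3ϵ-/- TAC and 30% from WT TAC to the group labelled CD8+T cell-depleted TAC. Of 16 genes of B cell receptor signalling, which include *Bank1*, *Cd22* and *Ptpn6*, 0 were past the fold in 4 of the 5 comparisons, and 1 was, upward, from WT TAC to the group labelled CD8+T cell-depleted TAC. Of 11 transcription factors of B cells, 4 were past the fold from CD3ϵ-/- sham to CD3ϵ-/- TAC. From WT sham to WT TAC 2 were, and 2 from WT TAC to CD3ϵ-/- TAC, all upward, with 0 in the other 2 comparisons. The shares of all genes past the fold upward were 15.7%, 17.0% and 14.3%, in the same order. The count of 4 of 11 lay above its share and those of 2 of 11 near theirs, and none was tested. The 4 were *Pou2af1*, *Pou2f2*, *Spib* and *Tcf3*, and the 2 from WT sham to WT TAC were *Bach2* and *Tcf3*, of which *Spib*, *Tcf3* and *Bach2* are named after their values were seen. *Tcf3*, which encodes the E proteins of early B cells, had 146, 153, 257, 248 and 245 CPM, higher in the 3 TAC groups. *Pou2af1*, a coactivator of Oct proteins on immunoglobulin promoters, had 381, 379, 414, 747 and 471 CPM and stood out in CD3ϵ-/- TAC. *Pax5*, which holds B cells to their fate, had 547, 616, 581, 731 and 612 CPM. Of 8 genes of survival and homing, 2 were past the fold in each of 3 comparisons and 0 in the other 2, near or below the share of all genes. *Ccr7*, a chemokine receptor of homing to lymph nodes, had 606, 673, 443, 362 and 435 CPM and was lower in the 3 TAC groups. Of 8 genes of antigen presentation, 7 passed the filter, and 0 were past the fold except from CD3ϵ-/- sham to CD3ϵ-/- TAC, where 2 were lower. *H2-Ab1* had 5084, 5112, 4205, 3155 and 5438 CPM.

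The 10 genes also serve to part kinds of B cell. Leaving out the 2 cells of very high *Igkc*, *Fcer2a* was read in 380 B cell-like cells and not in 83. The cells without it had less *Ighd* (1436 against 2207 CPM) and *Fcmr* (823 against 1015 CPM), while *Ighm* (4671 against 4428 CPM) and *Cd79a* (3191 against 3365 CPM) were close. The 25 cells without a read of *Ighd* had 5800 CPM of *Ighm* and 2765 CPM of *Ms4a1*, against 4386 and 1522 CPM in the 438 others, and *Zbtb32*, known from B-1 and memory B cells and named after its values were seen, was read in 5 of these 25 cells and in 4 of the 438. The cells without *Ighd* were 5 of 103, 6 of 123, 8 of 94, 1 of 74 and 7 of 71, with the 2 cells of very high *Igkc* counted. Of the 25 cells, 1 held 22.2% of their *Ighm* reads. In a list of 7 genes of B-1 cells, 6 passed the filter from WT TAC to CD3ϵ-/- TAC and all 6 were past the fold downward, against 30.1% of all genes either way, with *Itgam* at 60.6 and 23.1 CPM, *Spn* at 57.2 and 22.0 CPM, and *Bhlhe41* at 51.0 and 25.1 CPM. From WT TAC to the group labelled CD8+T cell-depleted TAC, 4 were. In both comparisons *Plscr1*, *Ctla4* and *Cd5* passed the filter through WT TAC alone (38.0, 33.0 and 27.3 CPM). They could thus be past the fold only downward, so these counts cannot show a change of B-1 cells. Few cells carried the reads of this list. *Itgam* was read in 5 of 94 WT TAC cells, and 1 cell held 52.6% of its reads, while *Plscr1* was read in 9, of which 1 held 72.5%. In WT TAC the reads of *Cd5* and of *Ctla4*, named after their values were seen and known also from T cells, came from 1 cell each. Markers of some other cells moved in the same direction, and those of others did not. The summed level of 6 T cell markers in B cell-like cells was 231 CPM in WT TAC, with 4 of the 6 at 20 CPM or more, and 5.83 CPM in CD3ϵ-/- TAC, with none there. That of 6 markers of conventional dendritic cells was 199 and 4.26 CPM. The summed levels of markers of neutrophils (24.3 and 87.9 CPM), NK cells (4.76 and 16.4 CPM) and endothelial cells (98.6 and 175 CPM) went upward. The part of such markers in the counts of the B-1 list was not tested.

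Of 4 genes of follicular B cells, 3 are members and the other is *Cxcr5*, and 2 were past the fold upward from WT TAC to CD3ϵ-/- TAC, *Cr2* and *Cxcr5* (139 and 241 CPM), against 30.1% of all genes. The call of *Cr2* is the one lost without the cells of high *Igkc* and with 6 markers. Of the marginal zone list, 4 or 5 of 6 genes passed the filter in a comparison, and 1 to 3 were past the fold. Of the immature B cell list, 2 or 3 of 5 measured genes passed it, and 0 to 2 were past the fold. The share of all genes was 24.1% to 31.1%. *Mzb1* had 170, 129, 171, 148 and 153 CPM. *Rag2*, part of the recombinase of developing lymphocytes, had 8.30 to 12.8 CPM.

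Of 10 other immunoglobulin genes listed, 5 had a row in the matrix used. *Igha* had 10290 CPM in the B cell-like cells of WT sham, by the cell named above, and 3.36 to 121 CPM in the other 4 groups. *Ighg2b*, the constant part of IgG2b, had 36.0 CPM in WT TAC and no read in B cell-like cells of the other 4 groups, and 2 cells held its reads. *Ighg1*, *Ighg2c*, *Ighg3*, *Ighe* and *Jchain* were not analysed here.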

How the data were processed

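CD45+ cells were enriched from hearts with magnetic beads and profiled by TAS-Seq. Per the submitters' processing notes, the authors used cutadapt 2.10 and Bowtie2 2.4.2 with the mouse build GRCm38, and the deposited values are raw counts of reads per gene and cell, not of molecules. Reads of 1 molecule are therefore counted repeatedly, and highly amplified molecules weigh more. The deposited matrix had 5363 columns, of which 48 were not used here, namely 40 that the authors had called doublets and 8 without a hashtag. No further doublet caller was run. Cells with at least 500 genes and at most 40% mitochondrial reads were kept, and total reads per group ran from 91899777 to 208758777.

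Reads were summed over the cells of a set and group and divided by the total reads of those cells (CPM). Sets were cut by *Lyz2* (2000 CPM), *Csf1r* (200 CPM) and, for B cell-like cells, 4 of 10 markers at 20 CPM. Each group was 1 sample, so ratios (with 10 CPM added) were read against a fold of 1.5, with no test. Shares of cells were also thinned to 30702 reads per cell. CPM values depend on the total, so a change in 1 abundant gene moves the others. The 10 genes and, for each further list, at most the 4 genes of highest level in B cell-like cells were to be named, with the 5 genes most like the 10, some of which are not reported here, and genes beyond this rule are said to be so or are given to describe single cells. The members and lists were chosen with earlier results of these data known. The ratio step was checked on simulated data. Alternatives changed the *Lyz2* limit, the markers, the filters, the added CPM and the way of averaging. Python 3.11.15 with numpy 2.4.6, pandas 2.3.3, scipy 1.17.1 and matplotlib 3.10.9 was used. Sequences came from RefSeq (GRCm38.p6) and, for the λ genes, from the GENCODE M1 transcripts.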

Additional observations from a re-analysis of the deposited data

Results flagged for a closer look

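In B cell-like cells, the change of *Igkc* from sham to TAC went down in WT and up in CD3ϵ-/- hearts, and the log2 ratios differed by 1.89. A single WT sham cell held 70.5% of the *Igkc* reads behind the WT ratio. Without the cells of *Igkc* above 30000 CPM both genotypes went up, from 8771 to 9610 CPM in WT and from 8119 to 11919 CPM in CD3ϵ-/- hearts, and the log2 ratios differed by 0.42. The change of *Ms4a1* also went in opposite directions, with a difference of 0.68 between the log2 ratios. Neither difference was tested, as each group was 1 sample.

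The 139 kept cells that were neither low in *Lyz2* nor myeloid entered no comparison. They had 111 CPM of *Igkc*, above the 0.815 CPM of the myeloid cells with fewer than 4 B cell markers, and 7 of them (5.04%) had at least 4 B cell markers. These 7 cells held 98.3% of the *Igkc* reads of the 139 cells, had 2070 to 11765 CPM of *Lyz2* and at most 122 CPM of *Csf1r*, and came from 4 of the 5 groups.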

How the results depend on the processing

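No paired analysis was possible because each hashtag group was 1 sample. A change of direction was looked for only in medians of 1.5-fold or more and in single genes past the fold. Among the medians, only that from WT TAC to CD3ϵ-/- TAC in cells with low *Lyz2* (0.76) was so large, and it kept its direction. Whether smaller medians changed sign was not checked. Among the single genes, 2 log2 ratios of *Igkc* changed direction. In cells with low *Lyz2*, that from WT sham to CD3ϵ-/- sham (-1.12) became 0.58 and 0.65 with *Lyz2* limits of 1000 and 500 CPM, 0.39 with the mean of single cells and 0.61 without cells of *Igkc* above 30000 CPM. In B cell-like cells, that from WT sham to WT TAC (-1.33) became 0.13 without them. In cells with low *Lyz2*, the number of the 10 genes past 1.5-fold from WT sham to WT TAC was 3 with a *Lyz2* limit of 1000 or 500 CPM and 1 with the mean of single cells. From CD3ϵ-/- sham to CD3ϵ-/- TAC it was 1 with the limit of 1000 CPM, 2 with that of 500 CPM (median log2 ratio -0.38) and 1 with 1 CPM added. From WT TAC to CD3ϵ-/- TAC it was 3, with a median of 0.53, at the limit of 500 CPM. From WT TAC to the group labelled CD8+T cell-depleted TAC it was 2 with the mean of single cells and 3 with 1 CPM added. In B cell-like cells, the mean of single cells and leaving out cells with *Igkc* above 30000 CPM, both chosen after seeing the data, gave 0 genes past the fold from WT sham to WT TAC, from WT sham to CD3ϵ-/- sham and from WT TAC to CD3ϵ-/- TAC. The last was also 0 with 6 markers. With the mean of single cells, the median from CD3ϵ-/- sham to CD3ϵ-/- TAC was 0.17. The median myeloid level of the 10 genes, 0.627% of that in B cell-like cells, was 0.0645% without the 38 cells with B cell markers and 0% with the median of single cells, which gave 2.78% for *Ighm*. With *Iglc1* and *Iglc3* added, λ-led cells were 7.10%, and 52.5% of thinned myeloid cells had 3 reads of *Ighm*. The WT sham cell of highest *Igkc* had 1803 CPM of *Lyz2*, so the limits of 1000 and 500 CPM left it out as well. Beyond this, the causes of these changes were not tested. With 71 to 123 B cell-like cells a group, shares of 5% to 10% carry intervals several points wide, and the spread between animals is unknown.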
